A study of Mus musculus with 38 samples.

Results

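The proteasome genes were taken by symbol: every protein-coding mouse gene whose symbol begins with Psma, Psmb, Psmc, Psmd, Psme, Psmf or Psmg followed by a number, without Psmb8 and Psmb9. This gave 48 of the 48709 genes counted in each mouse. All but Psmc3ip encode a part, an assembly factor or a regulator of the proteasome, as far as their roles are known. Psmc3ip, a cofactor of meiotic recombination, has no part in the proteasome and is kept because the symbol rule takes it in. Psmb8 and Psmb9 are treated with the other genes of the pathway.

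The libraries come from hippocampal RNA of 38 C57BL/6 mice, which the study's methods describe as male. APPPS1ΔE9 mice carry transgenes for mutant APP and PS1 and deposit amyloid plaques. They were compared with wild-type (WT) mice without the transgenes, and both genotypes ate pellets with anle138b, a diphenylpyrazole that acts on protein aggregates, or placebo pellets. The pre-plaque group, named for a start of treatment before plaque onset, was aged 6 months and held 4 mice of each genotype on each chow. The paper counted plaques in APPPS1ΔE9 mice of this group. In both groups treatment ran for the 4 months before analysis. The post-plaque group, aged 10 months, held 5 WT mice on either chow, 5 APPPS1ΔE9 mice on placebo and 7 APPPS1ΔE9 mice on anle138b. The labels of the 4 placebo-treated WT libraries of 6 months name WT in the title and the transgenic genotype in another field.

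Total counts were between 15847985 and 31895808 per mouse, and the 48 genes held between 47230 and 102780 of them, or 0.275 to 0.393% of a library. App, on which transgene reads are counted, was at most 1809 CPM (counts scaled to a fixed library size) in every mouse grouped as WT and at least 3228 CPM in every APPPS1ΔE9 mouse, the 4 libraries with the label conflict included. Y-linked expression was scored as present where the summed counts of Ddx3y, Eif2s3y, Kdm5d and Uty exceeded those of Xist. By this rule it was absent in 12 mice, of which 11 were WT and 1 was APPPS1ΔE9. Lane and group were largely tied: the placebo-treated WT mice of 6 months were in lane 4, the placebo-treated APPPS1ΔE9 mice in lane 5 and the anle138b-treated APPPS1ΔE9 mice in lane 6. Neuronal markers were abundant in every mouse (6 genes, summed 5587 to 7204 CPM), as were 5 genes of hippocampal neurons (573 to 1382 CPM). The choroid plexus list (Ttr, Kl, Folr1, Otx2 and Clic6) was not even, with sums of 64.7 to 7922 CPM at 6 months, and of 32.2 to 303 CPM at 10 months in every mouse but 1, which had 4328 CPM.

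The 26S proteasome degrades proteins that carry ubiquitin chains. Its 20S core is a barrel of α and β rings whose Psmb5, Psmb6 and Psmb7 subunits cut peptide bonds, and its 19S cap binds ubiquitin, removes it and unfolds the substrate with a ring of ATPases. The subunits are made in fixed ratios, and their genes are known to be raised together by the transcription factor NRF1, the product of Nfe2l1, when proteolysis is inhibited. In immune cells, interferon replaces the catalytic subunits with Psmb8, Psmb9 and Psmb10 and raises the activator genes Psme1 and Psme2.

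NRF1 binds antioxidant response elements, and stretches before the start are shown for 2 catalytic subunits with such a motif and for 2 members of the 19S cap with an ETS motif. Of the 48 genes, 40 had a promoter in the RefSeq table (GRCm38.p6, 250 bases before to 50 after the start of each gene). The core of the element, searched as TGACNNNGC on both strands, was in 6 of the 40 promoters (15%; Psmb5, Psmb6, Psmc6, Psmd9, Psmd12 and Psme4), beside 16.5% of the 12821 promoters of genes tested over all mice. The CCAAT box (CCAAT, both strands) was in 14 (35%, beside 42.0%). The core of ETS factor sites (CCGGAA, both strands) was in 21 (52.5%, beside 27.1% of the promoters of tested genes and 16.7% of all promoters in the table). These are letter matches and do not show binding. The 150 bases before the start are given here for 4 members, on the strand of the gene, with matches in capitals: the antioxidant response element core in Psmb5 (chr14:54617996-54618145, minus strand) and Psmb6 (chr11:70525207-70525356, plus strand), both catalytic subunits, and the ETS core in Psmc6 (chr14:45329674-45329823, plus strand), an ATPase, and Psmd2 (chr16:20651502-20651651, plus strand), a scaffold of the base.
Psmb5: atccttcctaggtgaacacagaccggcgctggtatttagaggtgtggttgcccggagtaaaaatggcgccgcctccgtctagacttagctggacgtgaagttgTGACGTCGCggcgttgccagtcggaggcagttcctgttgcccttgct
Psmb6: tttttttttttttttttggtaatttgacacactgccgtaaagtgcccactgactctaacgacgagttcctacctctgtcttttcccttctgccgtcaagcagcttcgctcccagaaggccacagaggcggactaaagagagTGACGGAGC
Psmc6: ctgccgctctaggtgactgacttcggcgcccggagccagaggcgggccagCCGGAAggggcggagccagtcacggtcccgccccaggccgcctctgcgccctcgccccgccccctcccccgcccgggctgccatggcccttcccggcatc
Psmd2: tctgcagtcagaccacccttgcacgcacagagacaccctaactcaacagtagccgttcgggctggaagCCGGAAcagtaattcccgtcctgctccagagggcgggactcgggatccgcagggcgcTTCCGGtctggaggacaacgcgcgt
In Psmb6 the match ends at the base before the start, and in Psmd2 the second match is on the opposite strand. Psmc6 also held the antioxidant response element core from position -227 relative to the start, outside the stretch shown.

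Levels between genes were compared per length, as RPKM (CPM per kilobase of exon). The highest member was the ATPase Psmc5 with 101 ± 7.60 RPKM (SD, n = 38 mice), followed by the α ring gene Psma6 (67.0 ± 10.7 RPKM) and a further ATPase, Psmc3 (57.7 ± 4.20 RPKM). The next in order, Psmb4, Psmc1 and Psmb2 at 56.3, 53.2 and 51.7 RPKM, each differed from the gene just above by less than their own SDs of 7.08, 4.52 and 5.67 RPKM. Among the constitutive catalytic subunits, Psmb6 (caspase-like) was at 45.3 ± 5.20 RPKM, Psmb5 (chymotrypsin-like) at 34.6 ± 3.92 RPKM and Psmb7 (trypsin-like) at 23.3 ± 3.66 RPKM. By this measure subunits of a single complex differed. The 6 ATPases ranged from 21.8 (Psmc2) to 101 RPKM (Psmc5) and the 8 lid subunits from 7.55 (Psmd11) to 40.3 RPKM (Psmd7). The length used joins all annotated exons of a gene, 5031 bases for Psmc2 and 1394 for Psmc5. In CPM these ATPases were closer, with medians of 118.3 (Psmc2) and 149.2 (Psmc5) at 6 months. How far annotated length sets the order in RPKM was not tested. Psmb10, the catalytic subunit of the immunoproteasome, was at 17.2 ± 2.09 RPKM.

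The assembly factors and most activators were among the lower members. The 4 chaperones of 20S assembly (Psmg1 to Psmg4) had between 2.3 and 9.54 RPKM, and the 3 chaperones of the 19S base (Psmd5, Psmd9 and Psmd10) between 3.38 and 9.86 RPKM. Of the activators, nuclear Psme3 was at 35.2 RPKM, Psme1 at 13.5, Psme4 (PA200) at 9.15 and Psme2 at 5.27 RPKM. The genes of other tissues were close to 0, with 0.141 RPKM for Psma8, the α subunit of testis, and 0.0472 RPKM for Psmb11, the catalytic subunit of thymic epithelium. Psmb11 did not pass the filter on low counts, which left 47 members. Psme2b (0.394 RPKM) is a near copy of Psme2 and can share its reads, so its values are uncertain. Over 20% of the exon bases of Psmd9 (25.5%) and Psmc3ip (21.2%) also lie in exons of a gene on the other strand, and the strand setting of the counting is not given in the sources used here.

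**Figure D1:**
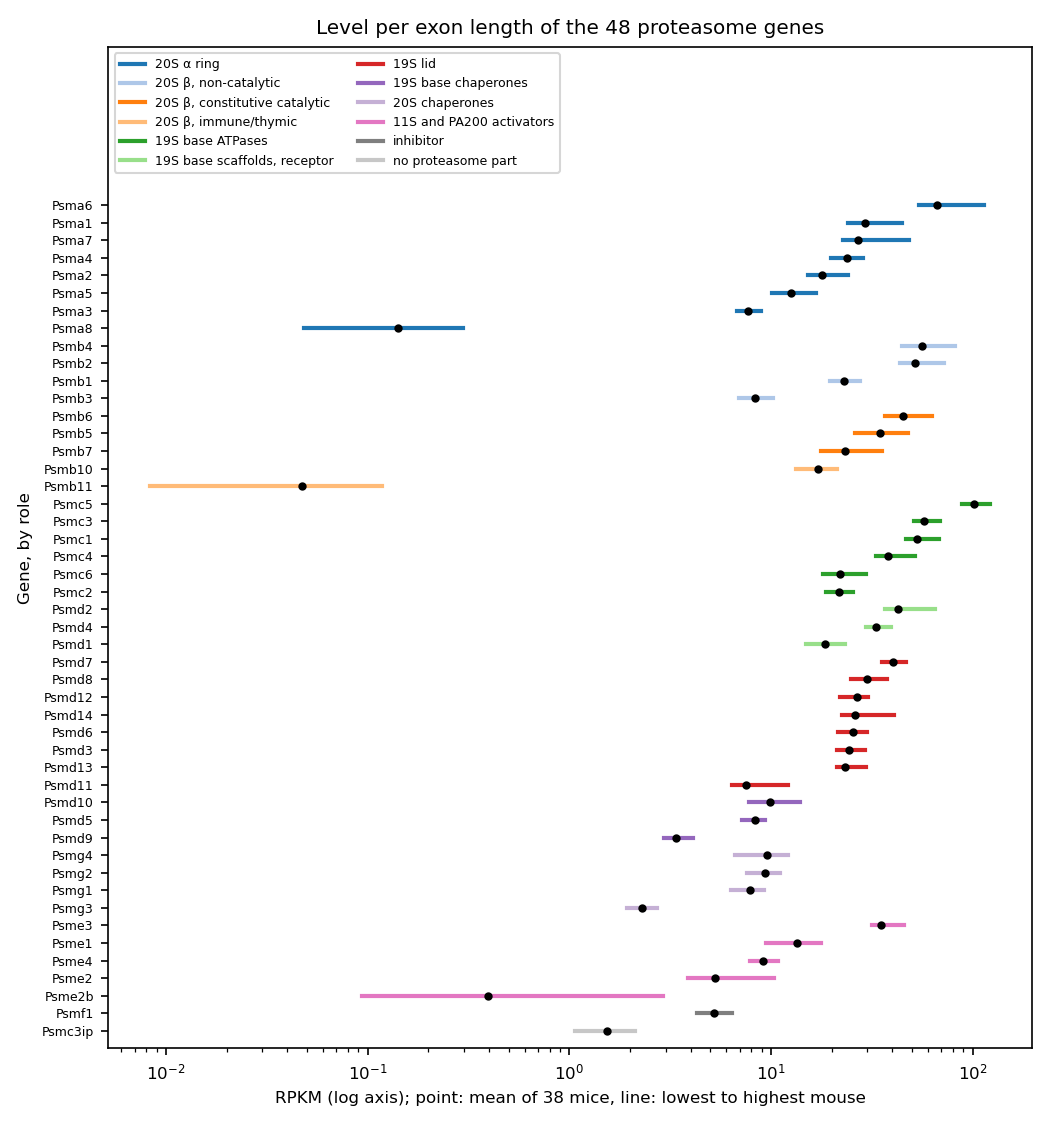
Level of each of the 48 proteasome genes in RPKM (horizontal log axis), grouped by role in colour, with the mean of 38 mice as a point and the lowest to the highest mouse as a line. Most members lie between 2.3 and 101 RPKM, while Psma8, Psmb11 and Psme2b lie under 0.5 RPKM on average.

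The median SD of log2 CPM within groups was 0.106 over the 47 members and 0.194 over all 18232 genes tested. These genes were not matched to the members in level, so the gap does not single out the members. The mean level of the family, which is the mean log2 CPM of the 47 members in a mouse, was 5.41 ± 0.047 (SD, n = 4) in placebo-treated WT, 5.35 ± 0.045 in placebo-treated APPPS1ΔE9 and 5.41 ± 0.050 in anle138b-treated APPPS1ΔE9 mice of 6 months. The anle138b-treated WT mice of 6 months had 5.49 ± 0.16, with mouse 39 at 5.72 and the other 3 at 5.37, 5.42 and 5.44. At 10 months the 4 groups were at 5.23 ± 0.042 and 5.25 ± 0.048 (SD, n = 5 each, placebo- and anle138b-treated WT), 5.25 ± 0.040 (n = 5, placebo-treated APPPS1ΔE9) and 5.23 ± 0.041 (n = 7, anle138b-treated APPPS1ΔE9). The groups of a single age overlapped, apart from mouse 39.

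**Figure D2:**
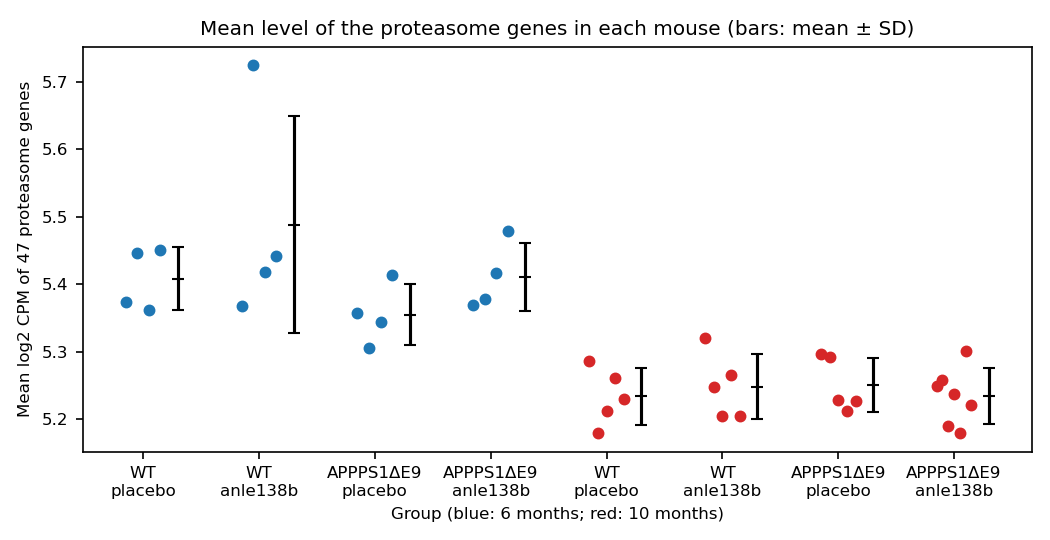
Mean log2 CPM of 47 proteasome genes (vertical axis) in each of 38 mice by group, with the mean ± SD of each group as a bar (blue: 6 months, red: 10 months). Mouse 39 of the anle138b-treated WT group stands at 5.72, and the mice of 10 months lie between 5.18 and 5.32.

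Mouse 39 stood apart before any comparison is made. It was the highest of the 16 mice of 6 months for 34 of the 47 members, against 14.5% of all genes tested. Against the mean of the other 3 mice of its group, the median difference of the members was 0.27 on the log2 scale (1.21-fold) and that of all genes -0.010. The difference was uneven among subunits of the same complex. Psmd11, a lid subunit, was at 77.5 CPM against 43.4, 44.8 and 46.6 CPM in the other 3 mice. Psma6 was at 141 CPM against 86.5, 94.2 and 95.04 CPM, and Psmd14, the deubiquitinase of the lid, at 115 CPM against 75.4, 75.7 and 76.2 CPM. The activator Psme2 was at 18.3 CPM against 9.58, 10.4 and 10.6 CPM. By contrast Psmb1 (113.9 CPM) lay within the range of the others (111.8 to 125.8 CPM), and Psmb10 lay below it (27.02 against 30.6, 30.6 and 34.004 CPM). In all, 37 members were above the range of the other 3 mice and 5 below it. The share of all genes outside that range was not taken. Against the mean of the other 3 mice, 85.1% of the members and 47.9% of all genes were higher.

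Other genes of mouse 39 differed more. Vim, an intermediate filament gene of several cell types, was at 463 CPM against 43.4 to 48.4 CPM, and S100a6 at 324 against 11.7 to 12.7 CPM (both named after their values were seen). Its astrocyte list was nevertheless the lowest of the 16 mice of 6 months (2212 CPM, against up to 2853 CPM), as were its lists for oligodendrocytes (4225 CPM) and microglia (282 CPM), and its neuron list was the second lowest (5894 CPM). Its choroid plexus sum was 6908 CPM. The total of mouse 39 was 17764531 counts, the lowest of its group. Median fold changes that rest on the anle138b-treated WT mice of 6 months are given without mouse 39 too. So are some of the counts and some of the single genes that it moved. Mouse 71, a placebo-treated APPPS1ΔE9 mouse with the lowest family mean of its cohort (5.30), was the lowest of 16 for 22 members, against 14.7% of all genes.

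**Figure D3:**
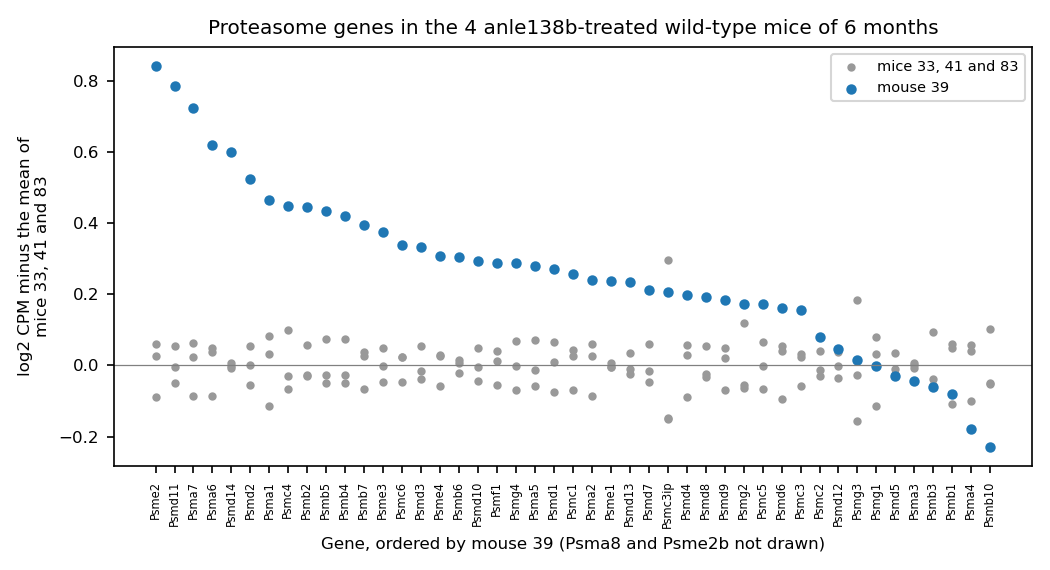
Difference of log2 CPM from the mean of mice 33, 41 and 83 (vertical axis) for each of 45 proteasome genes in mouse 39 (blue) and in those 3 mice (grey), the 4 anle138b-treated WT mice of 6 months. Mouse 39 is highest at Psme2, Psmd11 and Psma7 and below 0 at Psmb10, Psma4 and Psmb1.

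The first comparison asked whether the proteasome genes differ between placebo-treated APPPS1ΔE9 and WT mice of 6 months. None of 45 members tested passed an adjusted p of 0.1 at 6 months with edgeR's quasi-likelihood test, 0 with DESeq2 as well, beside 0.0715% of all genes. The members leaned lower in APPPS1ΔE9 mice: 35 were lower and 10 higher (49.2% of all genes lower). Their median log2 fold change was -0.058, against 0.0023 for all genes. The median was -0.039 without mouse 71 and -0.087 without mouse 75. At an unadjusted p under 0.05 there were 4 members (11.1% of all genes in either direction), all 4 lower (5.86% of all genes lower). Psma6 was at 87.6, 90.9, 96.0 and 97.6 CPM in WT and at 75.8, 80.2, 85.2 and 88.1 CPM in APPPS1ΔE9 mice, which overlap by 1 mouse (log2 fold change -0.18, SE 0.06, edgeR adjusted p = 0.38). Psma3 of the α ring was at 31.2 to 34.6 CPM in WT and at 27.7 to 30.6 CPM in APPPS1ΔE9 mice, without overlap (log2 fold change -0.15, SE 0.06, edgeR adjusted p = 0.42). The other members at that p were the ATPase Psmc6 (-0.16) and Psmb3 of the β ring (-0.18). On the higher side the smallest p belonged to Psmd11 (0.09, edgeR adjusted p = 0.54).

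By role, 6 of 7 α ring genes, the 3 constitutive catalytic subunits and 5 of 6 ATPases had lower fitted values, while 2 of the 3 base scaffold and receptor genes had higher ones. The catalytic subunits differed by -0.066 (Psmb5), -0.041 (Psmb6) and -0.15 (Psmb7), and the ubiquitin receptor Psmd4 by -0.038. Psmb10, Psme1 and Psme2, the genes raised by interferon, differed by -0.025, -0.075 and -0.14, with SEs of 0.075, 0.060 and 0.10. The 95% interval of the fold change lay within ±0.5 for 44 of the 45 members, and its typical reach was 0.13 on either side. Only 1 of the 4 WT mice had Y-linked expression and all 4 APPPS1ΔE9 mice did. With Y-linked expression as a covariate the median was -0.0029, and with GC content and length offsets -0.025. The groups were in different lanes, so lane and genotype cannot be told apart.

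Between anle138b-treated APPPS1ΔE9 and WT mice of 6 months, 0 of 46 members passed (edgeR, and 0 with DESeq2), beside 0.047% of all genes. No member had an unadjusted p under 0.05 with edgeR, against 5.64% of all genes. The median was -0.047 with 34 members lower and 12 higher, and it was 0.014 without mouse 39. The smallest p was that of Psme2 (-0.41, SE 0.20, edgeR adjusted p = 0.84), which was -0.15 without mouse 39. Psmb10 differed by 0.12 (SE 0.07; 0.065 without mouse 39), Psmb5 by 0.021 (SE 0.10; 0.14 without it) and Psmd14 by -0.13 (SE 0.15; 0.045 without it).

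For the effect of anle138b in APPPS1ΔE9 mice of 6 months, 0 of 46 members passed with edgeR and 0 with DESeq2, beside 0.0529% of all genes. Here 35 members were higher and 11 lower in treated mice (50.6% of all genes lower), with a median of 0.056, against -0.0022 for all genes, and of 0.091 without mouse 75. At an unadjusted p under 0.05 there were 4 members (13.1% of all genes in either direction), all of them higher (5.5% of all genes higher). Psma6 was at 86.6, 91.1, 93.8 and 98.9 CPM in treated mice, against the placebo values of 75.8 to 88.1 CPM given above, an overlap of 1 mouse (log2 fold change 0.17, SE 0.06, edgeR adjusted p = 0.33). Psmb4 of the β ring was at 121.1 to 128.6 CPM in treated and 107.2 to 119.4 CPM in placebo-treated mice, without overlap (0.12, SE 0.05, edgeR adjusted p = 0.36). The other members were the assembly chaperone Psmg4 (0.27) and Psmc6 (0.14). The 3 constitutive catalytic subunits differed by 0.080 to 0.13. This comparison shares its placebo-treated APPPS1ΔE9 mice with the genotype comparison, so opposite signs in both are not independent, and the groups were in different lanes.

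In WT mice of 6 months, anle138b gave 0 of 45 members past the threshold (edgeR, and 0 with DESeq2), beside 0% of all genes, and 0 members at an unadjusted p under 0.05, beside 1.85% of all genes. The median was 0.048 with 35 members higher, and without mouse 39 it was -0.0072. The smallest p among the higher members was that of Psmb6, at 93.8, 95.7, 96.2 and 117.8 CPM in treated and 89.7 to 94.6 CPM in placebo-treated mice, which overlap (0.14, SE 0.07, edgeR adjusted p = 1.0, and 0.057 without mouse 39). Psma3 had the smallest p among the lower members (-0.10, SE 0.06). The interaction of genotype and anle138b at 6 months gave 0 of 46 members past the threshold (edgeR, and 0 with DESeq2), beside 0% of all genes, and 1 at an unadjusted p under 0.05, beside 7.99% of all genes. This was Psma3 (0.20, SE 0.08, edgeR adjusted p = 0.62, and 0.19 without mouse 39). The median of the interaction was 0.015 and was 0.075 without mouse 39.

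At 10 months, where the paper describes more severe plaque pathology than in the pre-plaque group, the same comparisons gave no call. Between placebo-treated APPPS1ΔE9 and WT mice, 0 of 45 members passed (edgeR, and 0 with DESeq2), beside 0.324% of all genes, and 0 had an unadjusted p under 0.05, beside 4.1%. The sign of the lean was the opposite of that at 6 months, with 37 members higher and 8 lower (51% of all genes lower) and a median of 0.038, which was 0.015 without mouse 53. The difference between ages was not tested. The smallest p was that of Psmb4 (0.10, SE 0.05, edgeR adjusted p = 1.0). Psmb10 differed by 0.084 (SE 0.09), Psme1 by 0.078 (SE 0.15), Psme2 by 0.060 (SE 0.11), Psmb5 by 0.016, Psmb6 by 0.035 and Psmb7 by -0.026. All 45 intervals lay within ±0.5.

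Between anle138b-treated APPPS1ΔE9 and WT mice of 10 months, 0 of 45 members passed (edgeR, and 0 with DESeq2), beside 0.723% of all genes, and 0 had an unadjusted p under 0.05, beside 5.78%. The median was -0.018, and Psma6 (-0.095, SE 0.05) and Psme2 (0.16, SE 0.09) had the smallest p on either side (edgeR adjusted p = 0.84 for both). Anle138b against placebo in APPPS1ΔE9 mice gave 0 of 45 members (edgeR, and 0 with DESeq2), beside 0% of all genes, and 0 at an unadjusted p under 0.05, beside 1.48%, with a median of -0.0077. In WT mice it gave 0 of 45 (edgeR, and 0 with DESeq2), beside 0% of all genes, with a median of 0.028. There, 1 member had an unadjusted p under 0.05, beside 1.25% of all genes. This was Psmb4, at 101.4, 101.7, 105.7 and 111.9 CPM in 4 treated mice and 98.7 CPM in the fifth, against 86.7 to 102.2 CPM with placebo (0.12, SE 0.05, edgeR adjusted p = 1.0). With only the mice that had Y-linked expression (2 against 2), 14 members passed in this WT comparison, together with 5550 of the 17203 genes tested (32.3%). The interaction at 10 months gave 0 of 46 members (edgeR, and 0 with DESeq2), beside 0% of all genes, with a median of -0.046. At an unadjusted p under 0.05 there was 1 member, beside 2.3% of all genes, which was Psmb4 (-0.15, SE 0.07).

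**Figure D4:**
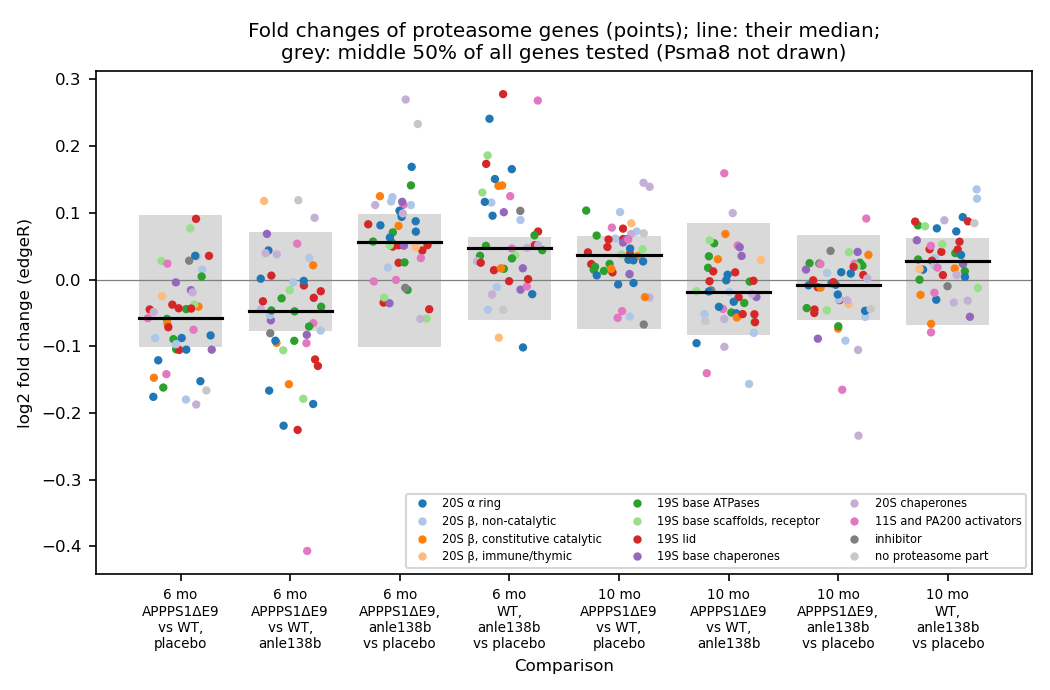
log2 fold change of each proteasome gene (points, colour by role, Psma8 not drawn) in the 8 comparisons within an age, with the median of the members as a line and the middle 50% of all genes tested in grey. The medians lie between -0.058 and 0.056, inside the grey box in each comparison.

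A fit over all 38 mice, added after the data were seen, gave narrower intervals. Averaged over ages and chows, APPPS1ΔE9 against WT gave 0 of 47 members past the threshold (edgeR, and 0 with DESeq2), beside 1.46% of all genes, and 4 at an unadjusted p under 0.05, beside 8.91%. The median was -0.021 (-0.0062 without mouse 39) and changed sign to 0.066 with the lane number as a term. The members with the smallest p were Psma6 (-0.11, SE 0.04, edgeR adjusted p = 0.35, and -0.066 without mouse 39) and the lid subunit Psmd13 (-0.06, SE 0.02, edgeR adjusted p = 0.38). Psmb10 differed by 0.053 (SE 0.05). Anle138b against placebo gave 0 of 47 members (edgeR, and 0 with DESeq2), beside 0% of all genes, and 2 at an unadjusted p under 0.05, beside 4.81%. These were Psma6 (0.10, SE 0.04, and 0.056 without mouse 39) and Psmb4 (0.07, SE 0.03, and 0.046 without it), both with an edgeR adjusted p = 1.0. The median was 0.036, and 0.021 without mouse 39. In both comparisons the interval lay within ±0.5 for 46 of the 47 members.

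The largest difference lay between the cohorts. Over all mice, 39 of 47 members were lower and 1 was higher at 10 than at 6 months, beside 32.1% of all genes lower and 29.7% higher (edgeR adjusted p under 0.1). The median of the members was -0.17 (0.888-fold) and that of all genes -0.015. The titles use 16 of 22 pairs of sample number and lane in both cohorts. A shared lane number was therefore read as standing for different sequencing runs, which the labels do not state. The cohorts differ in age, in the time of treatment, by this reading in sequencing run, and in how much choroid plexus RNA their libraries held. These cannot be told apart.

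The catalytic core was lower as a whole. Psmb5 ranged from 30.6 to 42.8 CPM (median 33.7) in the 16 mice of 6 months and from 23.5 to 34.1 CPM (median 29.2) in the 22 mice of 10 months (log2 fold change -0.23, SE 0.04, edgeR adjusted p = 7.16e-06). Psmb6 went from 85.3 to 117.8 (median 93.5) to 68.9 to 85.9 CPM (median 77.3), an overlap of 1 mouse of each age (-0.26, SE 0.03, edgeR adjusted p = 1.06e-09). Psmb7 differed by -0.33 (SE 0.04, edgeR adjusted p = 1.43e-07) and Psmb10 by -0.23 (SE 0.05, edgeR adjusted p = 5.46e-05). The other β ring genes were lower by the same test, with Psmb1 and Psmb4 at -0.28, Psmb2 and Psmb3 at -0.14. So were the 7 well-expressed α ring genes, from -0.12 (Psma3) to -0.30 (Psma6, and -0.25 without mouse 39).

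Psmb1 and the ATPase Psmc2 were lower in all 22 mice of 10 months than in any of the 16 mice of 6 months, a pattern shown by 2 of the 47 members and by 0.176% of all genes. Psmc2 was between 94.5 and 110.7 CPM at 10 months and between 112.0 and 128.0 CPM at 6 months (-0.22, SE 0.02, edgeR adjusted p = 3.75e-10). Psmb1 was between 90.4 and 102.86 CPM and between 102.93 and 126.5 CPM (-0.28, SE 0.02, edgeR adjusted p = 3.17e-12), so that the highest mouse of 10 months came close to the lowest of 6 months.

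In the 19S cap all 6 ATPases (-0.14 to -0.22) and the 3 base scaffold and receptor genes were lower, the ubiquitin receptor Psmd4 by -0.14 (SE 0.02). Of the 8 lid subunits, 6 were lower, led by Psmd8 (-0.27, SE 0.03, edgeR adjusted p = 3.38e-10). Psmd14 differed by -0.17 (SE 0.04; -0.12 without mouse 39). Psmd3 (-0.046, SE 0.03) and Psmd11 (0.054, SE 0.05) did not pass. The base chaperone Psmd10, also called gankyrin, had a difference of -0.34 (SE 0.04, edgeR adjusted p = 4.22e-09), and the other base chaperones were lower too (Psmd5 -0.13, Psmd9 -0.079). Of the 20S chaperones, Psmg1, Psmg2 and Psmg4 passed, and Psmg3 (-0.086) did not.

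The activators went in different ways. Psme1 (-0.29, SE 0.06, edgeR adjusted p = 0.00020) and Psme2 (-0.23, SE 0.07, edgeR adjusted p = 0.0037, and -0.16 without mouse 39) were lower. Psme3 (-0.046, SE 0.03) did not pass. Psme4, which encodes PA200, a nuclear activator, was the member that was higher, at 65.7 to 90.8 CPM (median 80.1) against 66.7 to 88.5 CPM (median 72.9), with overlapping ranges (0.12, SE 0.04, edgeR adjusted p = 0.0073). The inhibitor gene Psmf1 (-0.023, SE 0.03) did not pass. Psmc3ip was lower (-0.18, SE 0.09, edgeR adjusted p = 0.085), although it has no part in the proteasome.

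**Figure D5:**
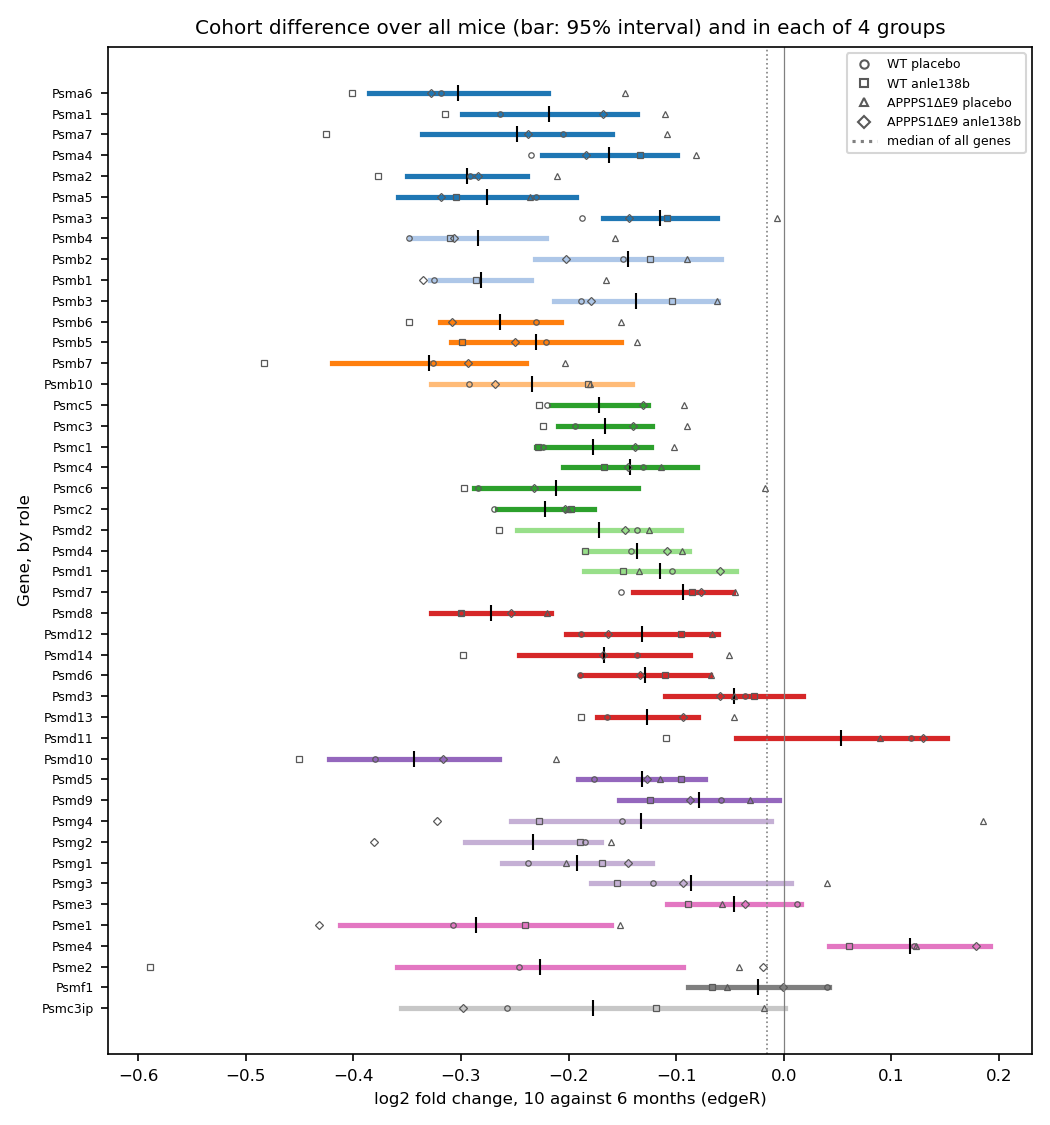
log2 fold change at 10 against 6 months (horizontal axis) of 45 proteasome genes over all mice (tick, with the 95% interval as a bar, colours by role as in the plot of levels) and in each of 4 groups of genotype and chow (open symbols). All but Psmd11 and Psme4 lie below 0 over all mice, and the dotted line gives the median of all genes (-0.015).

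The cohort difference was looked at in 4 separate fits that share no mouse, one for each genotype and chow. Of 45 members, 39 were lower in all 4 fits, beside 32.7% of all genes, and 17 were called lower in at least 3 of them, beside 8.36%. In placebo-treated WT mice 30 members were called lower (15.9% of all genes), in anle138b-treated WT mice 20 (12.5%, and 19 members without mouse 39), and in anle138b-treated APPPS1ΔE9 mice 31 (20.4%). In placebo-treated APPPS1ΔE9 mice only Psma2 and Psmc2 were called lower (0.657% of all genes), with a median of -0.095 against medians of -0.19, -0.19 and -0.17 in the other 3 fits. Of these, the median in anle138b-treated WT mice was -0.15 without mouse 39. The counts in the placebo-treated groups rest on single mice: in WT mice 16 members were called without mouse 31 and 19 without mouse 77. In APPPS1ΔE9 mice 9 were called without mouse 71, 4 without mouse 57 or mouse 86, and 0 without any of the other 6. The number of all genes called in these fits moved too, from 4066 to 6378 in WT and from 22 to 1431 in APPPS1ΔE9 mice. In anle138b-treated WT mice it was 3547 to 4541 when a single mouse was left out. Whether the placebo-treated APPPS1ΔE9 mice differ from the other groups was not tested. With the choroid plexus level as a covariate, the fits called 12 members in placebo-treated WT, 0 in anle138b-treated WT, 0 in placebo-treated and 31 in anle138b-treated APPPS1ΔE9 mice, with edgeR. The number of all genes called in these fits is not given here, so the counts do not single out the members. Psma2, an α ring gene, and Psmc2 were called lower in all 4, at -0.29, -0.38, -0.21 and -0.28 and at -0.27, -0.20, -0.20 and -0.20 in the order WT placebo, WT anle138b, APPPS1ΔE9 placebo and APPPS1ΔE9 anle138b.

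Several values moved with the cohorts. Without mouse 39 the fit over all mice called 38 members with a median of -0.15, and Psmg4, Psmd9 and Psmc3ip lost their calls. The fits over all mice that left out a single mouse called between 10917 and 11484 of all genes. With the summed choroid plexus level as a covariate the fit over all mice called 37 members with a median of -0.21. The hippocampal neuron list spanned 778 to 1010 CPM (median 855) at 6 months and 573 to 1382 CPM (median 1156) at 10 months. With that level as a covariate 39 members were called with a median of -0.17. The number of all genes called with either covariate is not given here, so these counts do not single out the members. Oligodendrocyte sums spanned 4225 to 5557 and 2088 to 6427 CPM, astrocyte sums 2212 to 2853 and 2076 to 3192 CPM, and endothelial sums 88.0 to 115.8 and 102.5 to 127.3 CPM. In placebo-treated WT mice the astrocyte sums were 2394 to 2753 CPM at 6 and 2076 to 2250 CPM at 10 months, without overlap. The part of these 3 lists in the result was not tested. In bulk tissue, fewer cells that express a gene and less RNA per cell cannot be told apart.

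Of 27 other genes of the pathway that were tested, 13 were lower and 3 higher at 10 months over all mice (edgeR adjusted p under 0.1). By the same rule 32.1% of all genes tested were lower and 29.7% higher. Nfe2l1, the gene of the transcription factor NRF1, was lower (-0.19, SE 0.03, edgeR adjusted p = 1.32e-05). The largest falls were those of Sem1 (-0.36, SE 0.03), a small subunit of the lid, and Pomp (-0.27, SE 0.03), a maturation factor of the 20S core. Ngly1 (-0.22), the glycanase that processes NRF1, was lower, while Ddi2 (0.29, SE 0.04), the protease that activates it, was higher. Adrm1, a ubiquitin receptor of the 19S cap, was higher as well (0.31, SE 0.05). Rad23b, Txnl1, Uchl5, Uba6, Vcp, Usp14 and Ubqln2 were among the other genes that were lower.

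In the comparisons of genotype and of anle138b, 0 of these 27 genes passed with edgeR. The catalytic subunits of the immunoproteasome set aside from the family were low, with Psmb8 at 1.76 to 4.38 CPM and Psmb9 at 1.42 to 3.52 CPM over all mice. Psmb8 was higher in APPPS1ΔE9 mice in each of the 4 genotype comparisons (0.25, 0.24, 0.31 and 0.46, SEs 0.22, 0.17, 0.18 and 0.18) and by 0.32 over all mice (SE 0.10, edgeR adjusted p = 0.16), and did not pass in any. Psmb9 differed by 0.14 over all mice (SE 0.11, edgeR adjusted p = 0.81). Nfe2l1 differed by 0.0094 (SE 0.03).

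Members also varied together from mouse to mouse. After the group mean was taken out of each gene, the median correlation between 2 members was 0.34 over 38 mice and 0.26 without mouse 39, where 75.2% of the 1081 pairs were above 0. Without mouse 39 the mean correlation was 0.23 over pairs of members and 0.0015 over all pairs of genes tested, which were not matched to the members in level. Without mouse 39, the members closest to the mean of the others were Psmb7 (r = 0.82), Psma2 (0.81), Psma4 and Psmd6 (both 0.80) and Psma6 (0.79), which belong to the α ring, the β ring and the lid. Psme4 (r = -0.46), Psmc3ip (-0.32), Psmg4 (-0.22) and Psmd9 (-0.20) went against it over the 37 mice, but none did so in both cohorts. At 10 months these genes were at -0.64, -0.55, -0.37 and 0.089 in that order. At 6 months without mouse 39 they were at 0.059, 0.17, 0.083 and -0.68. These are descriptions over 37 mice that share lanes and tissue composition.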

How the data were processed

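The authors made TruSeq mRNA libraries from TRIZOL-extracted hippocampal RNA, mapped reads with STAR to mm10 and counted them with HTSeq. The deposited values used here are raw read counts per gene, 1 column in each of 38 files, and the annotation release is not given in the sources used here. The submitters' processing notes name HTSeq and mm10. Ensembl identifiers were matched to symbols in GENCODE M21 (48349 of 48709 genes, all 48 members). The members and gene lists were chosen with earlier results of these data known.

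Each pair of groups was fitted on all genes with edgeR 4.0.16 in R 4.3.3 (filterByExpr, TMM, robust glmQLFit, glmQLFTest, Benjamini-Hochberg over all genes), with a call at an adjusted p under 0.1. DESeq2 1.42.0 was an alternative. The SE was taken from the fold change and its F statistic. Log2 CPM used a prior count of 2. The scripts were tested on simulated data. Counts limit precision for low genes, and no 2 libraries of the same group agreed within sampling noise. Libraries of different groups were not compared in this way. Groups come from the titles.

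Named in a comparison were members past the threshold, otherwise those with the 3 smallest p in each direction, with Psmb5, Psmb6, Psmb7, Psmb10, Psme1, Psme2, Psmd4 and Psmd14 in comparisons of genotypes. The fits over all mice and between cohorts, and those with lane or choroid plexus and hippocampal levels, were added after seeing the data. Alternatives were RLE size factors, no filter, an adjusted p of 0.05, Y-linked expression, offsets for GC content and length (known for 47 of 47 members passing the filter), the replicate block and leaving out each mouse. The replicate number is a running number in the titles, and the labels state no pairing. Some genes of the pathway list enter its counts and are not reported here by name.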

Additional observations from a re-analysis of the deposited data

Results flagged for a closer look

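Among 80 tests of groups of 4 to 7 mice for a sample far from the rest, 4 were past Dixon's 95% critical value. The tests covered the family mean and single members in the same mice. They are not independent, so the count cannot be set against the 1 in 20 of independent tests. All 4 concern mouse 39 of the anle138b-treated WT mice of 6 months, which was the highest of its group at 118 CPM for Psmb6, 37.7 CPM for Psme1, 18.3 CPM for Psme2 and 115 CPM for Psmd14. Over all 376 pairs of a member and a group, 17 (4.52%) were past the critical value.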

How the results depend on the processing

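Within the cohorts, the count of members past the threshold stayed at 0 in 119 of 120 results under other settings and in all 114 fits that left out a mouse. The exception was anle138b in WT mice of 10 months. There the fit on mice with Y-linked expression (2 against 2) called 14, beside 32.3% of all genes. The medians moved by more than the spread between mice in 6 of 110. With Y-linked expression as a covariate the median of placebo-treated APPPS1ΔE9 against WT mice of 6 months was -0.0029, and with only the mice that had it -0.0017. With only those mice, the median was 0.17 for anle138b in WT mice of 6 months, 0.10 in WT mice of 10 months, -0.10 for the 6-month and -0.10 for the 10-month interaction. The causes were not tested. Over all mice, the lane number as a term, which may join lanes of different runs, turned the genotype median to 0.066. With 1 mouse left out, the cohort difference called 16 to 31 members in placebo-treated WT and 0 to 9 in placebo-treated APPPS1ΔE9 mice. Those fits called 4066 to 6378 and 22 to 1431 of all genes. Over all mice it called 36 to 40 members under the other settings and 38 to 41 when a mouse was left out, with medians of -0.21 to -0.14 and -0.18 to -0.15. The fits that left out a mouse called 10917 to 11484 of all genes.

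The replicate number does not mark a shared origin, and in no comparison did every pair of same-numbered mice deviate together (r over 0.1). With the replicate block the member count stayed at 0 in each comparison within a cohort, with a median of -0.059 for placebo-treated APPPS1ΔE9 against WT mice of 6 months and 0.055 for anle138b in APPPS1ΔE9 mice of 6 months. Between cohorts it called 13 members in placebo-treated WT, 6 in anle138b-treated WT and 0 in placebo-treated APPPS1ΔE9 mice. With choroid plexus level as a covariate these 3 counts were 12, 0 and 0. The number of all genes called under these settings is not given here, so a lower count is not particular to the members. Depth limits the low genes Psma8, Psmb11 and Psme2b.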
